A study of Triticum aestivum with 18 samples.

Results

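Genes whose transcript level differed between the 2 spring wheat genotypes Nanda and Sadash in the same direction at all 3 stages of microspore culture are described here, outside 2 blocks of neighbouring genes that are left out. Expression was compared in 9 Nanda and 9 Sadash libraries, all of the 18 in the series, with the stage of culture as a block. The genes left out run from TraesCS1B02G000800 to TraesCS1B02G150500 and from TraesCS1D02G424800 to TraesCS1D02G454700. Of 62692 tested high-confidence genes, 895 lay in these blocks and 61797 outside them, and 960 of those outside were stage-independent, 411 higher and 549 lower in Nanda. A gene was called where its log2 fold change (Nanda over Sadash) reached 1 in size with an adjusted p below 0.01, and was taken as stage-independent when it was called with stage as block and also on Day 0, Day 7 and Day 21, each time in the same direction.

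Nanda forms many embryos in culture and Sadash few, and the comparison asks which expression differences between them do not depend on the stage. Each genotype was sampled at the microspore stage (Day 0), as proembryos after culture (Day 7) and once embryo-like structures had formed (Day 21), in 3 biological replicates per group, 6 groups in all. Donor plants of both genotypes were grown alike, their spikes were kept in the cold before microspores were isolated, and RNA came from pooled material. Each genotype is a single cultivar, so cultivar and any other property of its plants cannot be told apart. Level here means CPM, a count scaled to the library total after TMM normalization, and in pooled cultures fewer cells of a type and less RNA per cell cannot be told apart.

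Microspore embryogenesis redirects an immature pollen cell, the male gametophyte, to divide and form an embryo without fertilization. Bread wheat is hexaploid, and most genes occur as homoeologous copies on the A, B and D subgenomes, so a cultivar can lack or silence a single copy while the others are expressed. Cultivars also differ in sequence from the reference genome against which reads are counted.

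Depth per library, over high-confidence genes, was 6675332 to 27463367 counts, and the smallest and the largest were both Sadash Day 21 libraries. The lists of gametogenesis, embryogenesis and seed storage genes served as markers of the stage. They hold only genes that the study had called on these same samples, in a shortened copy. Their change from Day 0 is therefore not independent evidence of the stage. The 8 seed storage genes summed to 1524 to 2293 CPM in Nanda and 1172 to 2505 CPM in Sadash on Day 21, against less than 1 CPM in each library of Day 0. The 11 embryogenesis genes summed to 112 to 144 CPM in Nanda and 68.1 to 99.1 CPM in Sadash on Day 7, and to 164 to 172 CPM in Nanda and 101.5 to 147 CPM in Sadash on Day 21, ranges that did not overlap on either day. The 14 gametogenesis genes summed to less than 1 CPM in each Day 0 library of microspores, so this list, as selected, does not mark the microspore itself. On Day 7 they summed to 210 to 230 CPM in Nanda and 102 to 197 CPM in Sadash, again without overlap. None of the 33 genes of these lists was called by edgeR with stage as block, while 11 had an unadjusted p under 0.05, and DESeq2 called none. The part of such stage differences in the results was not tested.

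With stage as block, 1827 genes outside both blocks were higher in Nanda, which is 2.96% of those tested, and 1767 genes were lower, which is 2.86%. These counts were 1079 higher and 1100 lower with a replicate block, and 954 and 916 on log2(TPM + 1). Of the genes that were higher, 411 were called at all 3 stages, 543 at 2 stages, 700 at 1 stage and 173 at none. Of the genes that were lower, 549 were called at all 3 stages, 578 at 2, 518 at 1 and 122 at none. No gene called with stage as block was called in the other direction at any stage. Stage-independent genes were therefore 0.665% of tested genes for higher and 0.888% for lower, or 1.55% together. The stage comparisons by themselves gave more calls, with 2817 higher and 3195 lower on Day 0, 3659 higher and 3760 lower on Day 7, and 3726 higher and 3491 lower on Day 21. These stage totals also depended on the unit. On log2(TPM + 0.1), 2804 genes were higher and 5580 lower on Day 7, and 6139 were higher and 2305 lower on Day 21, whereas the stage-independent genes were then 443 and 537. On log2(TPM + 1), 2301 were higher and 3908 lower on Day 7, and 5032 were higher and 1863 lower on Day 21. Without the second Sadash library of Day 0, 3454 genes were higher and 2169 lower on Day 0.

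Most stage-independent differences were large. The median fitted log2 fold change was 5.05 for genes higher in Nanda and -4.54 for genes lower in Nanda, against 0.00 over all genes outside both blocks. Genes without a count in the lower genotype have no measured fold, and with these set to a floor of 3 counts per library the medians were 3.81 and -3.76. The 122 members with 1 to 3 counts there kept their fitted folds, which can exceed that floor. A log2 fold change of 3 or more in size was reached by 289 of 411 genes higher and 369 of 549 genes lower, while 52 and 82 genes lay under 2. Since members had to pass a threshold at 3 stages, these sizes describe the members and were not tested. The higher genotype had a median of 8.41 CPM over the members and 6.32 CPM over all genes outside both blocks. Of the members, 98 had no count in any Sadash library and 72 had none in any Nanda library, and a further 53 and 69 had 1 to 3 counts in all 9 libraries of the lower genotype.

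The libraries of the 2 genotypes did not overlap for 358 of 411 genes higher and 455 of 549 genes lower in Nanda, that is 813 of the 960. Such a separation of all 9 Nanda from all 9 Sadash libraries was found for 1086 of all genes outside both blocks, or 1.76%. At each stage taken alone, the 3 Nanda libraries and the 3 Sadash libraries did not overlap for 947 members.

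The fitted size of the difference was similar through culture for some members only. In 282 genes, 131 higher and 151 lower, the 3 fitted stage log2 fold changes lay within 1 of each other, a 2-fold range. These are called even below. Where the lower genotype had few counts or none, the folds at each stage are not measured. Even then describes the fit only. The median range over all 960 members was 1.57. A test of genotype by stage interaction was called for 171 members, 66 higher and 105 lower, which is 17.8% of them. Over all genes outside both blocks the interaction was called for 27.6%. Members had to be called in the same direction at all 3 stages, which leaves out differences that change sign. The lower share among them is therefore partly set by the rule.

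**Figure D1:**
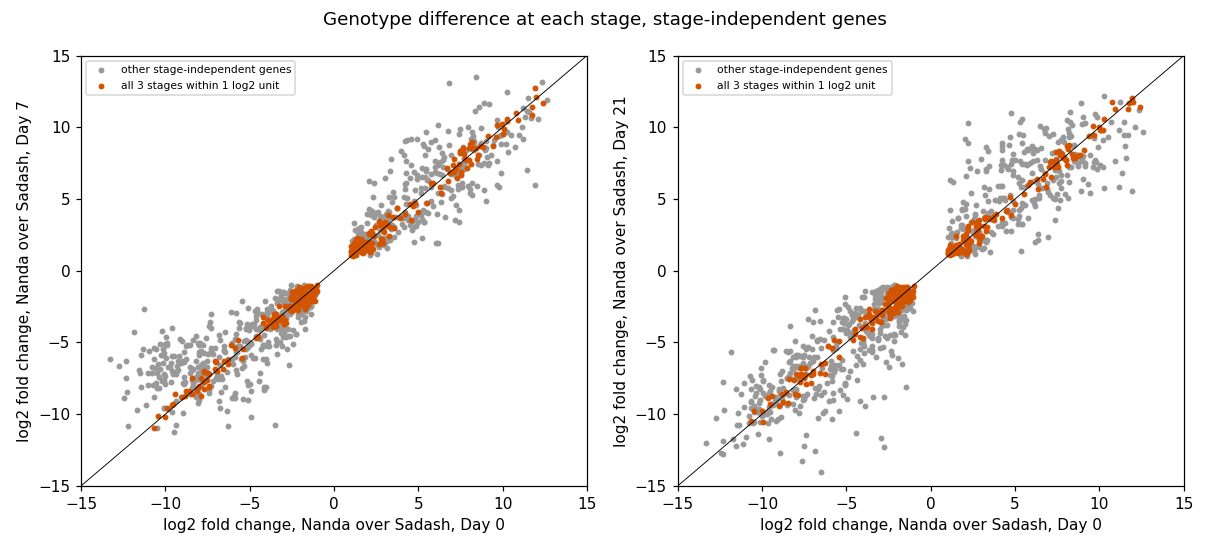
Log2 fold change of Nanda over Sadash on Day 0 (x axis) against Day 7 (left) and Day 21 (right) for the 960 stage-independent genes, with the 282 even genes in orange and a line of equal values. All points have the same sign on both axes because the same direction at each stage was required, and many grey points lie far from the line.

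TraesCS6A02G408200, an uncharacterized gene that the study singled out as a discriminator of the genotypes, was nearly without counts in Nanda. Its lowest, median and highest levels were 0, 0 and 0.0640 CPM in Nanda and 23.5, 27.2 and 35.1 CPM in Sadash. A single count was found in the 9 Nanda libraries together, against 3752 in Sadash, a Sadash to Nanda ratio of 3905 with a 95% exact counting interval of 701 to 154300. In Sadash its level hardly moved with the stage, at 28.5 ± 5.7 CPM on Day 0, 28.1 ± 6.2 on Day 7 and 29.2 ± 3.2 on Day 21 (SD, n = 3). Intervals of this kind cover counting error only.

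Among even genes higher in Nanda with at least 10 CPM, the 5 largest differences were nearly all-or-none. TraesCS7A02G503000 had 26.8, 39.1 and 239 CPM (lowest, median and highest) in Nanda, against 0, 0 and 0.0702 CPM in Sadash. It had 12388 counts in Nanda and 1 in Sadash, a ratio of 11900 with a 95% exact counting interval of 2136 to 470200. The gene peaked on Day 7 in Nanda at 231 ± 7 CPM, against 33.3 ± 4.1 on Day 0 and 36.2 ± 8.4 on Day 21 (SD, n = 3). It thus changed with the stage in the genotype that expressed it. With a single Sadash count, on Day 7, its fold at each stage was not measured. TraesCS2A02G243200, listed under the response to cold, had 27.3, 34.2 and 42.5 CPM in Nanda and no count in Sadash, at least 147-fold higher. TraesCS6B02G137100 was at least 139-fold higher, TraesCS6B02G208600 at least 116-fold and TraesCS7D02G457200 at least 94.5-fold, all with no Sadash count.

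Among even genes lower in Nanda with at least 10 CPM in Sadash, the 5 largest differences included TraesCS3B02G602400, which had 0, 0 and 0.128 CPM in Nanda, against 11.8, 46.0 and 143 CPM in Sadash. It had 3 counts in Nanda and 7516 in Sadash, a Sadash to Nanda ratio of 2608 (95% exact counting interval 892 to 12650). TraesCS7B02G443700 had 0.218, 0.401 and 1.11 CPM in Nanda and 31.6, 42.5 and 134 CPM in Sadash (log2 fold change -6.87, SE 0.16, adjusted p = 2.4e-16). The gene was highest on Day 7 in both genotypes, at 0.944 ± 0.268 CPM in Nanda and 112 ± 23 CPM in Sadash (SD, n = 3). TraesCS2D02G594300, listed under RNA splicing, had 0.127, 0.413 and 1.54 CPM in Nanda and 39.6, 63.9 and 123 CPM in Sadash (log2 fold change -6.86, SE 0.27, adjusted p = 2.7e-13). The other 2 of the 5 largest at that level were TraesCS6A02G035100 at -6.73 (SE 0.30) and TraesCS2D02G573500 at -5.56 (SE 0.24).

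**Figure D2:**
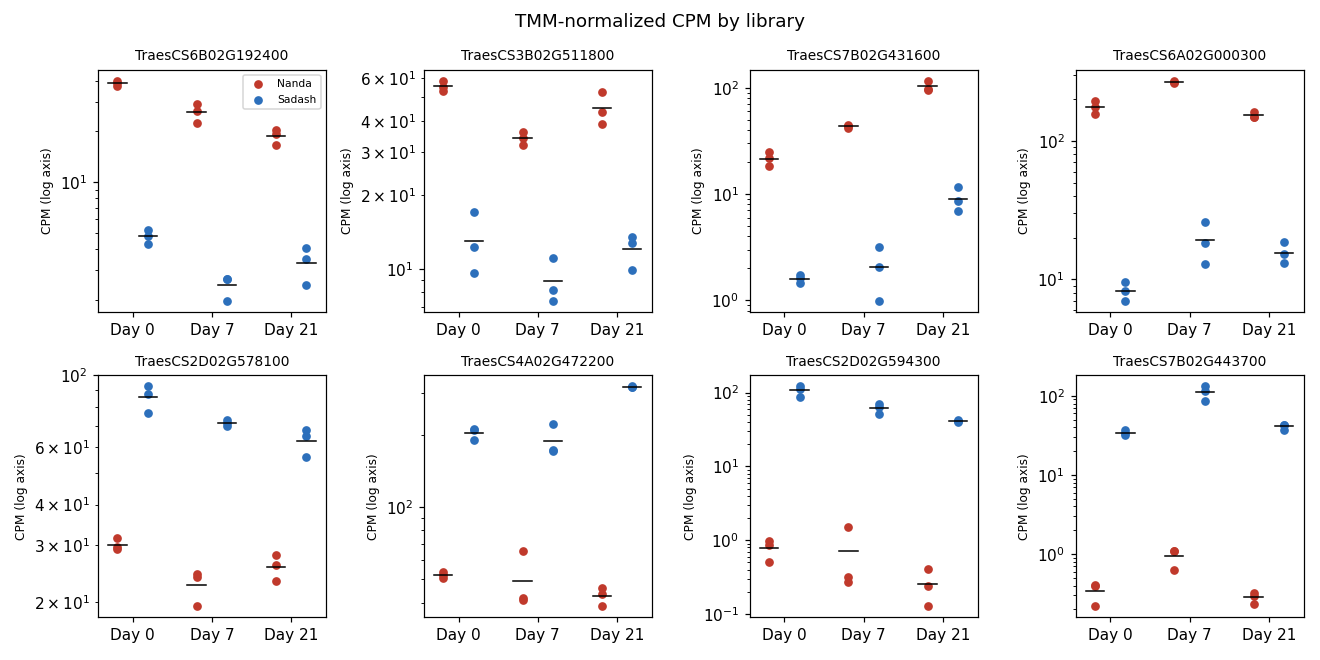
CPM (log axis) in each library of Nanda (red) and Sadash (blue) on Day 0, Day 7 and Day 21 for 8 named genes, with a bar at the mean of 3 replicates. The genotypes separate at each stage, by a log2 fold change of -1.49 in TraesCS2D02G578100 and of -6.87 in TraesCS7B02G443700, and both genotypes of TraesCS7B02G431600 are highest on Day 21.

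Descriptions were at hand for 2166 genes only, from a shortened copy of those the study called between Day 0 and Day 7 in Nanda. Of the 960 members, 4 carry such a description and 144 belong to a gene ontology (GO) list. TraesCS2D02G100900, an NAC domain factor of a family of plant-specific transcription factors, had 11.6, 34.1 and 53.6 CPM in Nanda and 1.71, 13.0 and 31.7 CPM in Sadash (log2 fold change 1.39, SE 0.21, adjusted p = 5.7e-05). Its ranges overlapped across stages, but the level was higher in Nanda on each day, with 49.1 ± 4.2 against 22.6 ± 9.3 CPM on Day 7 and 33.2 ± 5.7 against 16.0 ± 4.4 CPM on Day 21. TraesCS3B02G469700, a MADS-box transcription factor that matches rice MADS51, had 1.53, 3.62 and 11.3 CPM in Nanda and 0, 0.136 and 0.685 CPM in Sadash (4.58, SE 0.47, adjusted p = 3.9e-07). TraesCS4A02G472300, matched to a TSL-kinase interacting protein of Arabidopsis, was lower in Nanda, at 0.951, 1.78 and 3.27 CPM against 9.18, 19.3 and 32.4 CPM in Sadash (-3.24, SE 0.21, adjusted p = 5.1e-10). TraesCS1D02G076300 is annotated as an assembly factor of RNA polymerase II but matched to the chloroplastic outer envelope protein 64 of Arabidopsis. It had 5.86, 9.08 and 14.4 CPM in Nanda and 16.7, 23.3 and 37.6 CPM in Sadash (-1.40, SE 0.13, adjusted p = 1.5e-07). Over the 1052 tested transcription factors and transcription machinery genes, these 4 were the only stage-independent ones. They were 2 higher and 2 lower or 0.190% each, beside 0.665% and 0.888% of all genes outside both blocks. With stage as block 41 were higher and 14 lower (3.90% and 1.33%), beside 2.96% and 2.86%. The members of this list were called by the study between Day 0 and Day 7 in Nanda, and the part of this choice in the low share was not tested.

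The GO lists were selected by the study on these same samples and are shortened in the copy used, so that their counts are not independent evidence of a direction. Of 3427 tested genes in a GO list, 50 were stage-independent and higher in Nanda (1.46%) and 94 lower (2.74%), beside 0.665% and 0.888% of all genes outside both blocks. The list of translation and ribosome biogenesis had most members, 11 higher and 15 lower of 147 tested (7.48% and 10.2%), with a median log2 fold change of -0.03. TraesCS4A02G472200, listed under cytoplasmic translation, had 38.6, 46.2 and 65.4 CPM in Nanda and 171, 211 and 320 CPM in Sadash (-2.26, SE 0.15, adjusted p = 7.0e-10). TraesCS7D02G456600 in the same list went the other way, averaging 61.1 CPM in Nanda and 0.200 CPM in Sadash (log2 fold change 7.97).

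Of 60 tested genes of mRNA splicing, which removes introns from transcripts, 10 were stage-independent and lower in Nanda (16.7%) and none higher. Over all genes outside both blocks 0.888% were lower and 0.665% higher, and over genes in a GO list 2.74% and 1.46%. The median log2 fold change of the splicing list was -0.58. The 10 splicing members lie on 6 chromosomes. TraesCS4B02G392700 (7.34 CPM in Nanda and 41.1 CPM in Sadash on average) and TraesCS2D02G594300 had the highest levels. TraesCS2D02G531700, TraesCS2D02G594300 and TraesCS2D02G597500 among them lie in the stretch of Chr 2D described below, and the other splicing members lie outside it. TraesCS2D02G516300 and TraesCS2D02G592100, named next, also lie in that stretch. All 5 stage-independent genes of the 24 tested for DNA repair (20.8%) were lower in Nanda. TraesCS2D02G516300 of this list averaged 6.19 ± 2.85 CPM in Nanda and 53.2 ± 22.9 CPM in Sadash (SD, n = 9), and TraesCS1B02G343100 averaged 7.32 and 25.2 CPM. Of 76 tested genes of potassium and calcium ion transport, 5 were lower (6.58%) and none higher. TraesCS6D02G142400 (20.6 and 67.9 CPM) and TraesCS2D02G592100 (11.4 and 42.9 CPM) had the highest levels among them.

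Of 78 tested genes of heterochromatin and gene silencing, which keep parts of the genome inactive, 7 were stage-independent and higher in Nanda (8.97%) and 1 lower (1.28%). Over all genes outside both blocks 0.665% were higher and 0.888% lower. The list had a median log2 fold change of 0.13. TraesCS7B02G431600 had 18.4, 43.5 and 116 CPM in Nanda and 0.983, 2.05 and 11.5 CPM in Sadash (3.86, SE 0.19, adjusted p = 7.9e-12). Its level was highest on Day 21 in both genotypes, at 103 ± 12 CPM in Nanda and 9.04 ± 2.31 CPM in Sadash on Day 21 (SD, n = 3). TraesCS2B02G473600 was the exception in this list, at 2.56 CPM in Nanda and 43.5 CPM in Sadash (-4.13). Nucleosome assembly, the packing of DNA on histones, had 3 higher and 4 lower of 64 (4.69% and 6.25%). Of these 7 genes, 6 also stand in the list of the response to water deprivation (4 higher and 6 lower of 86, 4.65% and 6.98%).

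Of 18 tested autophagy genes, 2 were stage-independent and higher in Nanda (11.1%, beside 0.665% of all genes outside both blocks) and none lower. The list had a median of -0.08. The 2 genes were TraesCS2B02G610000 at 7.92 CPM against 0.445 CPM and TraesCS2A02G577400 at 2.10 CPM against 0.450 CPM. TraesCS6B02G192400, listed under metal ion transport, had 16.6, 26.5 and 39.9 CPM in Nanda and 1.96, 3.48 and 5.21 CPM in Sadash (2.96, SE 0.15, adjusted p = 1.2e-11). TraesCS3B02G511800, listed under seed maturation, had 31.9, 43.6 and 58.5 CPM in Nanda and 7.37, 11.0 and 17.1 CPM in Sadash (1.98, SE 0.13, adjusted p = 3.1e-10). TraesCS6A02G283000 of hormone-mediated signalling averaged 26.0 CPM in Nanda and 0.0905 CPM in Sadash (8.03, SE 0.34). TraesCS5B02G303200, listed under phenylalanine breakdown, was higher by 1.65 (SE 0.15) and nearly the same on Day 0 (1.67), Day 7 (1.72) and Day 21 (1.57).

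Stage-independent genes were unevenly spread over chromosomes. Chr 2D had 18 higher and 113 lower of 3481 tested genes (3.76% together), Chr 6A 34 and 54 (3.66%), Chr 3B 48 and 54 (3.01%), Chr 6B 37 and 39 (2.89%) and Chr 4A 23 and 51 (2.69%). At the other end, Chr 4D had 1 higher and 4 lower of 2388 (0.209%), Chr 3A 3 and 6 (0.292%), Chr 5A 6 and 4 (0.311%) and Chr 5D 7 and 4 (0.325%). By subgenome, 134 higher and 174 lower were on A, 189 and 194 on B and 65 and 170 on D, and 101 of the 170 lower genes on D lay in the stretch of Chr 2D described next.

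**Figure D3:**
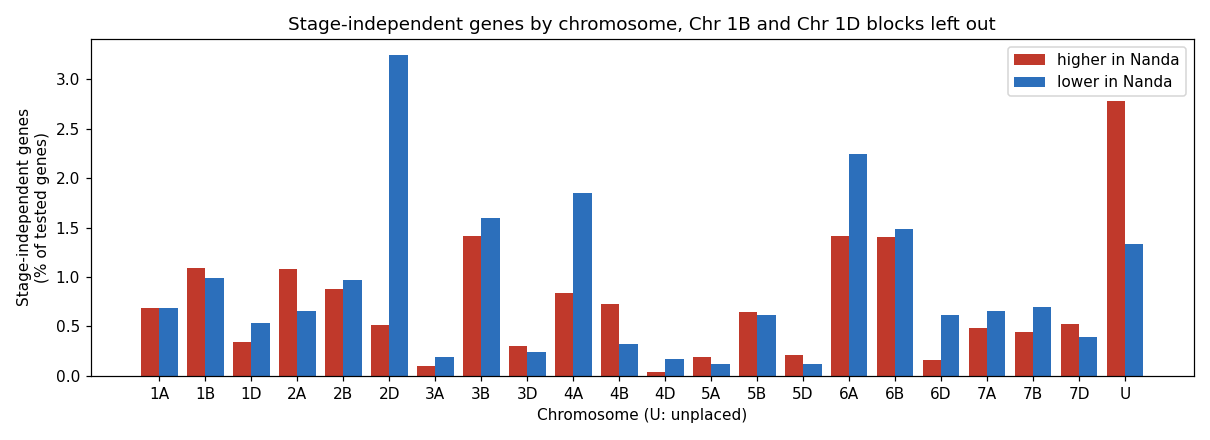
Stage-independent genes as a percent of tested genes on each chromosome (U, unplaced), red for higher and blue for lower in Nanda, with the Chr 1B and Chr 1D blocks left out. The bar for lower genes on Chr 2D, 3.25%, is the tallest, and both bars of Chr 4D, Chr 3A, Chr 5A and Chr 5D stay under 0.25%.

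Members also lay next to each other. Of the 960, 311 had a stage-independent gene as the adjacent tested gene, and of 189 adjacent pairs 170 had the same direction and 19 opposite directions. In windows of 50 tested genes in identifier order, 863 of 1248 windows held no member, whereas 25 windows with at least 7 members held 269 of the 960. The last 14 windows of Chr 2D, counted from the first there with at least 10 members, had 681 tested genes and held 5 higher and 101 lower genes. Of all genes there 33.2% were lower with stage as block, beside 2.86% of all genes outside both blocks. The stretch was not continuous. No member lay from TraesCS2D02G482800 to TraesCS2D02G501400 or from TraesCS2D02G543600 to TraesCS2D02G552700. The window from TraesCS2D02G572300 to TraesCS2D02G585100 had 19 members, all lower, and a median log2 fold change of -4.90 over its 50 genes. TraesCS2D02G578100 in that window had 19.4, 26.1 and 31.6 CPM in Nanda and 55.9, 71.4 and 92.8 CPM in Sadash (-1.49, SE 0.10, adjusted p = 3.8e-10). Chr 4A held 3 higher and 16 lower genes between TraesCS4A02G459400 and TraesCS4A02G475300 and 3 and 11 in the next window.

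On Chr 6A the direction changed between neighbouring windows. From TraesCS6A02G039700 to TraesCS6A02G050300 there were 14 higher and no lower genes, and in the next 2 windows 1 higher and 17 lower. On Chr 6B, 11 genes from TraesCS6B02G067700 to TraesCS6B02G076500 were lower and none higher. Of regions that the study had marked on these samples, the distal region of Chr 2A had 11 higher and 1 lower of 127 tested (8.66% and 0.787%). The distal region of Chr 7B had 6 higher and 8 lower of 110 (5.5% and 7.27%). Over all genes outside both blocks the shares were 0.665% and 0.888%. In the Chr 2A region, TraesCS2A02G567000 averaged 9.86 CPM in Nanda with no count in Sadash (at least 42.4-fold higher). The first of 2 regions on Chr 6B had 4 higher and 1 lower of 42 (9.52% and 2.38%). TraesCS6B02G130900 of translation was among them at 19.8, 21.2 and 31.3 CPM in Nanda and 0.286, 0.983 and 1.99 CPM in Sadash.

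**Figure D4:**
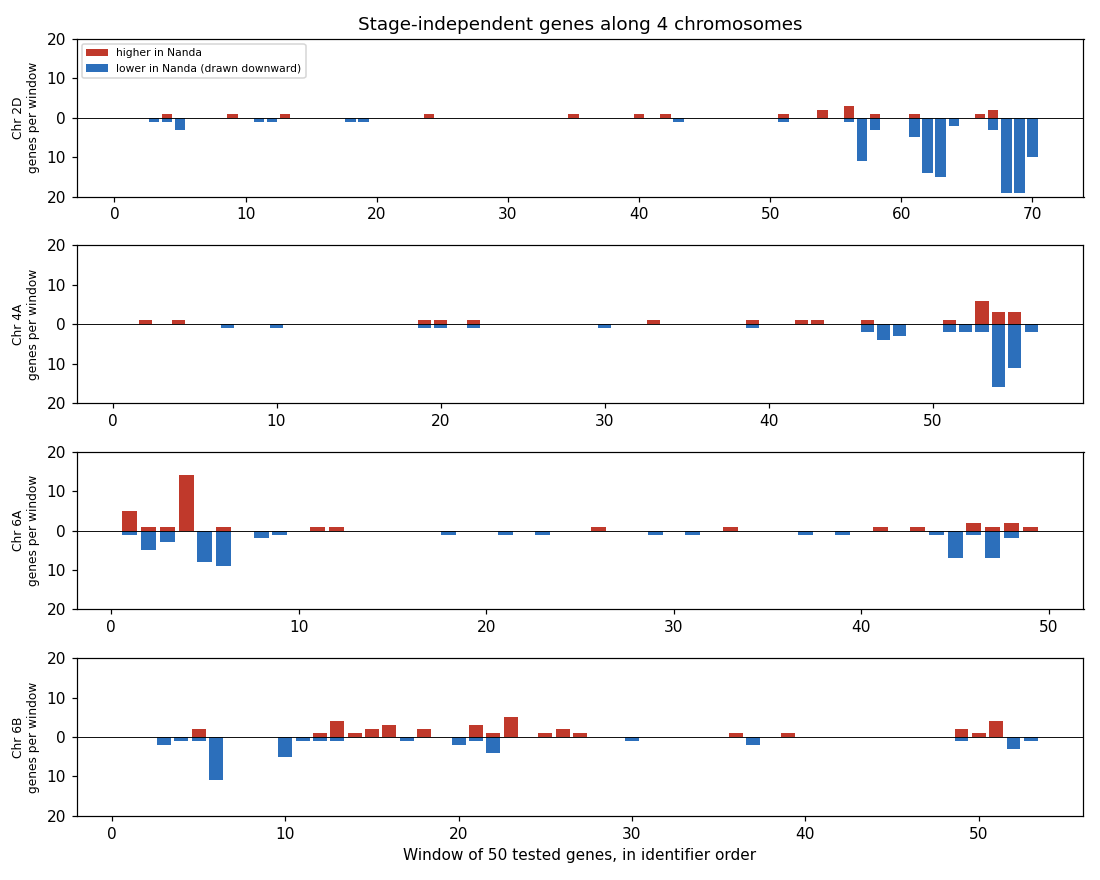
Number of stage-independent genes in windows of 50 tested genes, in identifier order, along Chr 2D, Chr 4A, Chr 6A and Chr 6B, with genes higher in Nanda drawn upward in red and genes lower drawn downward in blue. Members gather in the last windows of Chr 2D and Chr 4A, with up to 19 in a window, and Chr 6A has a window of 14 higher genes beside windows of lower genes.

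Where a stage-independent gene belonged to a triad of A, B and D copies, most of the other copies were not called with stage as block. The study's list of expressed triads is shortened in the copy used, to 1999 triads, so these counts do not cover all triads. Of the 1895 triads in it outside both blocks, 65 had such a copy, and 63 had exactly 1, which was higher in 24 and lower in 39. The single copy had a median log2 fold change of 2.06 in the first case and -2.79 in the second, while the other copies had medians of -0.07 (48 copies) and -0.02 (78 copies). Of the other copies in the 24 triads, 1 was called higher and 1 lower with stage as block. Of the 78 in the 39 triads, 4 were called lower and 8 higher, most of the 8 on Chr 2A. Over all genes outside both blocks 2.86% were called lower and 2.96% higher. The single lower copy was on D in 19 of the 39 triads, most of them in the stretch of Chr 2D described above. Reads shared by near-identical copies are divided among them by estimation, so the values of single copies are uncertain. TPM, which is scaled per transcript length, differed less when summed over the triad, with a median log2 ratio of 0.34 over the 24 triads and -0.39 over the 39. It passed 1 in size in 2 triads of each kind. In 1 of these, the triad of TraesCS7B02G345500 (1.07), the differing copy held few of the counts. The summed TPM, averaged over both genotypes, was at least 30.8 in each of the 65, so triads at low levels are not described.

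The A copy TraesCS6A02G000300 had 149, 176 and 273 CPM in Nanda and 6.94, 13.1 and 26.1 CPM in Sadash (3.84, SE 0.18, adjusted p = 2.8e-12). Its copies TraesCS6B02G004300 and TraesCS6D02G001600 differed by 0.11 and -0.36 and were not called with stage as block, although the B copy differed by 0.66 on Day 0 and -0.83 on Day 21. The summed TPM was 737 in Nanda and 612 in Sadash. The B copy TraesCS7B02G345500 averaged 7.85 CPM in Nanda and 0.0137 CPM in Sadash. The log2 fold change was -0.04 for TraesCS7A02G446000 and 0.22 for TraesCS7D02G436100. In CPM the A copy averaged 106 in Nanda and 108 in Sadash, and the D copy 134 and 111. The summed TPM was 1030 in Nanda and 489.5 in Sadash. The B copy held few of the counts, and the TPM sum weighs it by transcript length. The small log2 fold changes of the A and D copies average stage differences of opposite sign. These were 0.74 on Day 7 and -1.01 on Day 21 for TraesCS7A02G446000, and 0.95 and -0.56 for TraesCS7D02G436100. TraesCS1A02G316900 averaged 68.5 CPM in Nanda and 20.7 CPM in Sadash (1.83, SE 0.14), and its B and D copies differed by -0.36 and 0.01.

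Among triads with a lower copy, TraesCS2A02G296000 of translation had 24.5, 29.0 and 37.6 CPM in Nanda and 82.1, 151 and 177 CPM in Sadash (-2.10, SE 0.13, adjusted p = 2.2e-10). Its copies TraesCS2B02G312400 and TraesCS2D02G293900 differed by -0.04 and -0.02 with stage as block, and by 0.68 and 0.48 on Day 7 against -0.45 and -0.18 on Day 21. TraesCS2B02G013600 averaged 1.21 CPM in Nanda and 55.1 CPM in Sadash (-5.71, SE 0.31), and its A and D copies differed by -0.15 and -0.16 with stage as block, but by -1.29 and -1.44 on Day 21. The triad of TraesCS6A02G022600 is listed under pyruvate metabolism, and its A copy also under sulfur compound biosynthesis. Its log2 fold change was -2.79 (SE 0.28) on A, -1.53 (SE 0.21) on B and -0.90 (SE 0.16) on D, of which D missed the fold threshold.

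**Figure D5:**
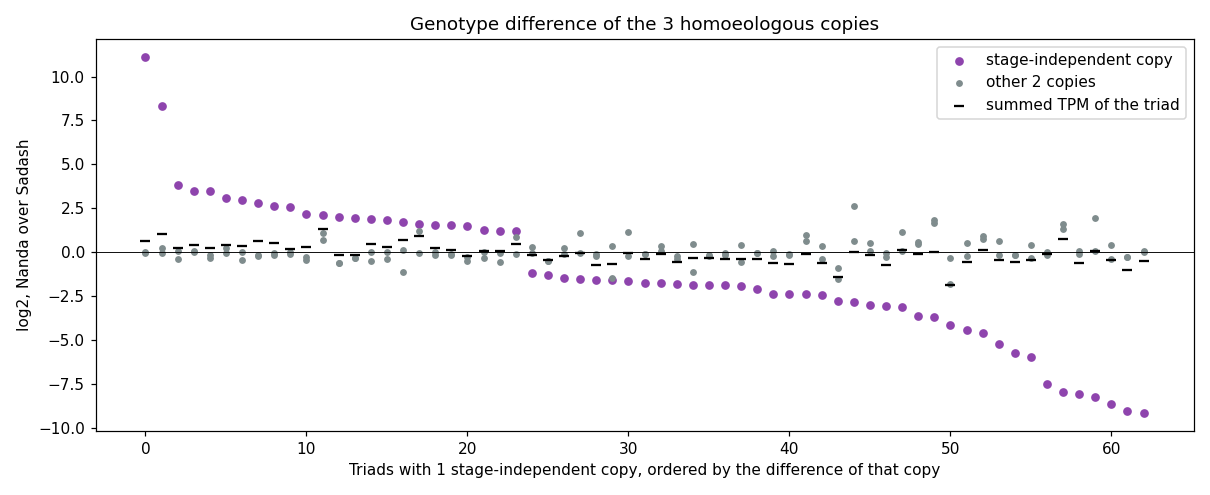
Log2 ratio of Nanda over Sadash for the 63 triads with exactly 1 stage-independent copy, ordered by that copy (purple), with the other 2 copies (grey) and the summed TPM of the triad (black bars). Grey points and bars stay near 0 in most triads while the purple points run past 10 and to below -9.

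Changes with the stage were counted within each genotype. Between Day 0 and Day 7, 186 of 960 members were called in Nanda and 143 in Sadash (19.4% and 14.9%), beside 33.7% and 28.2% of all genes outside both blocks. Between Day 7 and Day 21 the members called were 227 in Nanda and 220 in Sadash (23.6% and 22.9%), beside 34.1% and 35.5% of all genes. These shares are lowered by how members were chosen. In the lower genotype 170 members had no count and 122 had 1 to 3 counts, so a stage change there can hardly be called. In the genotype of the higher level, 233 of 411 genes higher in Nanda had no call at either step in Nanda, or 56.7% against 46.2% of all genes outside both blocks. Of the 549 lower genes, 354 had no call at either step in Sadash, or 64.5% against 49.2%. Since members had to pass a threshold at all 3 stages, these shares describe the members and were not tested.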

How the data were processed

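Total RNA of pooled material was sequenced as 18 libraries. The authors used Trimmomatic 0.39 for trimming, STAR 2.7.5a for alignment (genome IWGSC v1.1) and RSEM 1.3.3 for estimation, and deposited expected counts and TPM per transcript. Expected counts were summed per high-confidence gene and rounded. Genes reaching 1 CPM in any library were fitted by edgeR 4.0.16 (quasi-likelihood test, TMM, R 4.3.3) with stage as block, and by 6 group means for each stage and the interaction. The p-values were adjusted by Benjamini-Hochberg over all 62692 genes, and SE was taken from the F statistic. The scripts were tested on simulated data. Replicate pairs differed by more than sampling noise (chi-square per degree of freedom 1.90 to 25.5), and separate cultures are not stated, so p-values may measure technical spread. Deviations of same-numbered libraries correlated above 0.1 in all 3 pairs on Day 21 (0.17 to 0.41) but not on Day 0 or Day 7. Members and lists were chosen with earlier results of these data known. Named genes were the gene the study singled out, the 10 most abundant described members per direction, the 5 largest even members per direction among those averaging 10 CPM or more in the higher genotype, up to 2 members per list and per region, and the 3 most abundant triads per direction. Alternatives were RLE size factors, DESeq2 1.42.0, other filters, the blocks left out of the fit, limma-trend (limma 3.58.1) on deposited TPM, a replicate block, other limits and each library left out. Coordinates and sequences were not used here. Tables and plots used Python 3.11.15.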

Additional observations from a re-analysis of the deposited data

Results flagged for a closer look

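The genotype difference of 28 of the 62 named genes differed in size between stages by the edgeR interaction test, 18 of them stage-independent genes and 10 other copies of the triads. The adjusted p is given for each. Among genes higher in Nanda these were TraesCS1A02G316900 (0.0066), TraesCS3D02G164400 (0.0078), TraesCS6A02G000300 (0.0086), TraesCS6A02G112000 (0.0028) and TraesCSU02G081900 (0.0074). Among genes lower in Nanda these were TraesCS1B02G400200 (0.0098), TraesCS2A02G296000 (0.00092), TraesCS2B02G013600 (0.0024), TraesCS2B02G411600 (1e-05), TraesCS2D02G516300 (0.0038), TraesCS2D02G592100 (0.0017), TraesCS3B02G378900 (0.0099), TraesCS4A02G149300 (7.3e-05), TraesCS4A02G472200 (0.0014), TraesCS4A02G472300 (0.00057), TraesCS4B02G392700 (4.9e-06), TraesCS6A02G022600 (0.0004) and TraesCS6D02G142400 (0.0061). The other copies were TraesCS1D02G316900 (0.0027), TraesCS2A02G007300 (2.1e-05), TraesCS2B02G312400 (0.00027), TraesCS2D02G008200 (4.7e-07), TraesCS2D02G293900 (0.0018), TraesCS6B02G004300 (1e-05), TraesCS6B02G028600 (0.00058), TraesCS6D02G024400 (4.4e-05), TraesCS7A02G446000 (1.9e-05) and TraesCS7D02G436100 (1.3e-05).

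TraesCS6A02G112000 of hormone-mediated signalling was higher in Nanda by a log2 fold change of 1.61 on Day 0, 2.66 on Day 7 and 3.64 on Day 21. TraesCS4A02G149300 of starch metabolism was lower by -3.28, -1.43 and -1.67 on the same days. The A and D copies beside TraesCS2B02G013600 had differences of opposite sign early and late, with 0.33 and 0.43 on Day 0 and -1.29 and -1.44 on Day 21.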

How the results depend on the processing

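Of 346 counts recomputed under 30 settings, 331 stayed within 1.5 times the main value, and of the 62 named genes the 51 called with stage as block kept their direction and call in all 26 refits, while the others were called in none. The named genes were chosen for high level or large size, so this says little of weaker members. Of the 960 stage-independent genes, 951 remained with DESeq2, 660 on log2(TPM + 1) and 875 on log2(TPM + 0.1).

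On log2(TPM + 1), the genes called with stage as block were 954 higher and 916 lower, those higher on Day 7 2301, those lower on Day 21 1863 and even genes lower 249. On log2(TPM + 0.1), Day 21 gave 6139 higher and 2305 lower. The cause of these shifts was not tested. Asking for library separation at each stage in place of a call gave 896 higher and 868 lower, and a range within 1.5-fold left 55 even genes higher and 67 lower, a narrower limit by construction.

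Genes higher on Day 0 ran from 1769 to 3586 as each library was left out, 1769 without Nanda Day 0 replicate 2 and 1852 without replicate 3. Stage-independent genes ran from 375 to 429 higher and from 505 to 603 lower.

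With a replicate block, 1079 genes were higher and 1100 lower, and 329 and 475 were stage-independent. Same-numbered libraries correlated from -0.30 to -0.17 on Day 0, from -0.26 to 0.18 on Day 7 and from 0.17 to 0.41 on Day 21, where each correlated best with its own number. The numbers thus pair the libraries on Day 21 by this check and not on the other days, and the block left the Day 21 counts within 1.5 times.

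Members under a few CPM and folds against few counts are limited by depth.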
